A study of Mus musculus with 16 samples.

Results

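The 9 genes described here encode transcription factors of the macrophage lineage, namely Spi1, Cebpa, Cebpb, Irf8, Irf4, Klf4, Bhlhe40, Bhlhe41 and Maf. They were chosen by name, as the entries of the deposited gene tables that carry these symbols, and they are 9 of 54532 genes in all and 9 of 1469 genes to which the tables give a transcription factor family. RNA was sequenced from cells washed out of the airways (bronchoalveolar lavage) of mice 8 to 10 weeks old, whose strain is given as C57BL/6 in the series description and as C56BL/6J in the sample records. On day 14 after the agent was placed in the oropharynx there were 4 groups of 4 libraries: bleomycin males (library codes C33, C65, C66 and C67), bleomycin females (C49, C50, C68 and C69), saline males (C70, C71, C72 and C73) and saline females (C74, C75, C76 and C77). Bleomycin, a DNA-damaging drug used to injure the lung and model its fibrosis, was given at 4 U per kg of body weight, and no genotype or other agent is named for any group. The labels do not say that each library is 1 animal, so the p-values measure the spread between these libraries.

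The summed gene counts of a library lay between 21240382 and 24225885 in bleomycin males, 18871879 and 24567609 in bleomycin females, 16471022 and 19207944 in saline males, and 16385784 and 21393539 in saline females. Levels are given as CPM, the share of a gene in its library's total after that total was scaled for composition (TMM), and the 4 values of a group always follow the order of the codes above. A log2 fold change is bleomycin over saline and carries an approximate standard error (SE). It was called at an adjusted p below 0.05 in edgeR's quasi-likelihood F test with Benjamini-Hochberg adjustment over 15257 genes tested, among which were all 9 factors. The lavage was labelled only as lavage cells. Summed markers of resident alveolar macrophages reached 17465 to 32116 CPM under bleomycin and 26083 to 34391 CPM under saline. Those of monocytes and monocyte-derived macrophages reached 5270 to 12097 CPM under bleomycin and 617 to 737 CPM under saline. Single genes weigh heavily in these sums. The resident sums include Chil3, at up to 18637 CPM in the mean of a group, whose change did not pass (-0.26, SE 0.15). The monocyte sums include Csf1r, which averaged 332 CPM in saline males and 299.6 CPM in saline females. In such a mixture, fewer cells of a type and less RNA per cell cannot be told apart.

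Macrophage identity is built in layers. Spi1 (PU.1) opens macrophage enhancers and works with the C/EBP proteins Cebpa and Cebpb, and Irf8 and Irf4 bind composite sites together with PU.1. Klf4 acts in monocyte differentiation, and Maf restrains self-renewal in macrophages and drives genes of mature tissue macrophages. Bhlhe40 and Bhlhe41 are repressors that bind the E-box and are needed by the self-renewing alveolar macrophage, a cell that keeps Maf low.

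Promoters of 6 of the 9 genes were matched by symbol in the RefSeq table for build GRCm38.p6, and the 3 that hold the E-box of Bhlhe40 and Bhlhe41 or the letters of PU.1 are shown. Each is given 5′ to 3′ on the gene's own strand and ends before both the RefSeq start and the start of the gene in the files, with the motif in capitals. The Klf4 stretch is chr4:55532476-55532725 (minus strand), the Bhlhe41 stretch chr6:145865559-145865670 (minus strand) and the Irf4 stretch chr13:30748983-30749225 (plus strand).
Klf4: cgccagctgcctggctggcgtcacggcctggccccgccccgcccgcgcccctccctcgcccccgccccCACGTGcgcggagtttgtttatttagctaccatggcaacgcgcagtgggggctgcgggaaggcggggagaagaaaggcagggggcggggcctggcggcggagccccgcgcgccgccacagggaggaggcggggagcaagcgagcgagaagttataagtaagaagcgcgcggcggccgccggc
Bhlhe41: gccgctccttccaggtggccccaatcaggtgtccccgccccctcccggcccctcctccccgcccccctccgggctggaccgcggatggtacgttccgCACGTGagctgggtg
Irf4: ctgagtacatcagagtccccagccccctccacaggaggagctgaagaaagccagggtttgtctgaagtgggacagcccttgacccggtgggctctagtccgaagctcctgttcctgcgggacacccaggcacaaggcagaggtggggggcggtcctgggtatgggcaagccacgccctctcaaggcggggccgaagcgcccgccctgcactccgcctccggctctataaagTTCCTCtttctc
The capitals mark the E-box CACGTG, the site of Bhlhe40 and Bhlhe41, at position -182 from the RefSeq start of Klf4 and at position -153 for Bhlhe41, and the PU.1 letters GAGGAA, read on the other strand, at position -19 for Irf4. The E-box was present on either strand in 6.02% of 32851 promoters of 250 bases, and GAGGAA in 23.3%. Of 7 promoter entries of these genes, 2 held the E-box, 1 held GAGGAA and 1, that of Cebpa, held the Klf letters CCCACCC, which 15.8% of all promoters hold. The C/EBP letters TTGCNNCAA (1.74% of promoters), the interferon-stimulated response element (2.98%), the composite element of PU.1 and IRF proteins (2.3%) and the Maf letters TGCTGAC (3.81%) were in none of the 7. A match is a description of letters, not of binding.

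In the comparison of bleomycin with saline averaged over the sexes, 8 of the 9 factors passed the test, 5 higher and 3 lower. Over all genes tested, 63.6% passed in either direction, 34.7% higher and 28.8% lower, so a call by itself was common in these cells. Maf stood 24.9-fold higher under bleomycin, while the other 7 called factors moved by less than 1 log2 unit. The rises were in Maf, Irf4, Irf8, Bhlhe41 and Bhlhe40, and the falls in Klf4, Cebpb and Cebpa. Spi1 did not pass. Libraries of bleomycin and saline did not overlap for 3 of the factors, Maf, Irf8 and Klf4, whereas 19.2% of all genes were free of overlap in the upward direction and 10.3% in the downward direction.

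**Figure D1:**
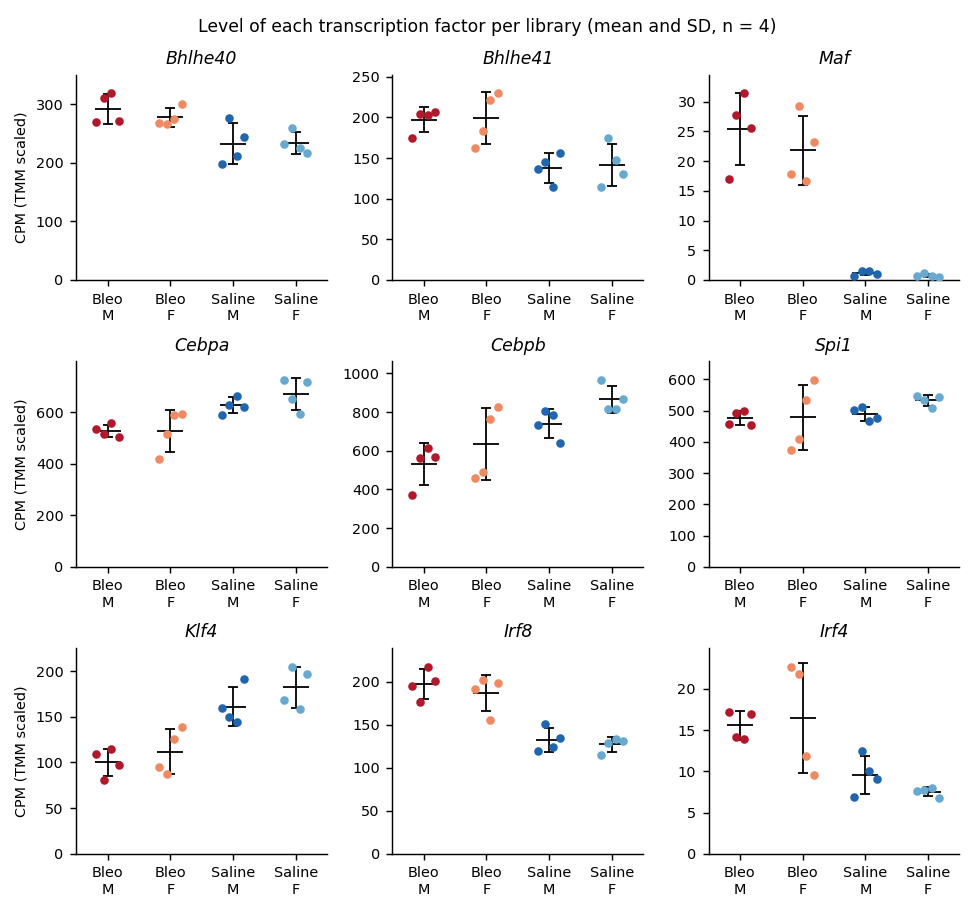
Level of each of the 9 transcription factor genes in CPM (linear axes from 0) in bleomycin males, bleomycin females, saline males and saline females; points are libraries, bars the mean and SD of 4 libraries. Maf is near 0 in the saline libraries and at 16.7 to 31.4 CPM in the bleomycin libraries, and Spi1 overlaps between the treatments within each sex.

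Maf (ENSMUSG00000055435, chr8:115682942-115707794, minus strand, GRCm38), the large Maf protein of mature tissue macrophages, had 16.98, 27.7, 31.4 and 25.5 CPM in bleomycin males and 17.9, 29.3, 16.7 and 23.2 CPM in bleomycin females. The saline libraries had 0.672, 1.43, 1.57 and 1.02 CPM in males and 0.666, 1.13, 0.683 and 0.454 CPM in females. These levels rest on 320 to 697 counts per library under bleomycin and on 8 to 32 under saline. Every bleomycin library lay above every saline library, with C33, C49 and C68 the lowest of the bleomycin libraries. The log2 fold change was 4.64 (SE 0.20, edgeR adjusted p = 8.63e-13) over both sexes, 4.43 (SE 0.28) in males and 4.85 (SE 0.29) in females. It ranked 32 by size among 889 tested genes with a transcription factor family.

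Irf8 (ENSMUSG00000041515, chr8:120736358-120756694, plus strand), which sets monocyte and dendritic cell fate, had 194, 176, 217 and 201 CPM in bleomycin males and 191, 202, 156 and 198 CPM in bleomycin females. In saline it had 119.8, 150.4, 124 and 135 CPM in males and 115, 129, 133 and 131 CPM in females. The lowest bleomycin library, C68, still lay above the highest saline library, C71. Irf8 rose by 0.57 on the log2 scale (SE 0.067, edgeR adjusted p = 7.52e-07), and by nearly the same in males (0.58, SE 0.095) and females (0.56, SE 0.095). Irf8 shares 20337 bases with the gene model Gm20388 on the same strand, which had 0 counts in every library. How reads in shared bases were assigned is not given in the sources used here, and an effect on the level of Irf8 was not tested.

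Irf4 (ENSMUSG00000021356, chr13:30749226-30766976, plus strand), a factor of alternatively activated macrophages, dendritic cells, activated T cells and plasma cells, had 17.2, 14.2, 13.9 and 16.97 CPM in bleomycin males and 22.7, 21.8, 11.9 and 9.58 CPM in bleomycin females. Saline males had 6.83, 12.4, 10.0 and 9.11 CPM and saline females 7.66, 7.70, 7.99 and 6.76 CPM. The groups did not overlap within either sex, but the bleomycin female library C69 lay below the saline male libraries C71 and C72, and C68 below C71. Irf4 rose by 0.92 on the log2 scale (SE 0.16, edgeR adjusted p = 8.54e-05), with 0.70 in males (SE 0.23, adjusted p = 0.0147) and 1.13 in females (SE 0.23, adjusted p = 0.000573). Without the saline male library C70, the rise in males was 0.57 and no longer passed (adjusted p = 0.0549), and with scaling by library totals alone it was 0.47 (adjusted p = 0.118). As a share of Irf8 in FPKM, Irf4 ran from 0.0696 to 0.171 under bleomycin and from 0.0742 to 0.119 under saline, so the ranges overlapped.

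Irf8 and Irf4 are expressed by dendritic cells and lymphocytes too, and most markers of these cells were also higher under bleomycin than under saline. All 14 tested dendritic cell markers rose, at a summed level of 714 to 1266 CPM under bleomycin and 160 to 288 CPM under saline. Of 14 T cell markers 13 rose and Cd2 fell, with sums of 353 to 699 CPM under bleomycin and 241 to 276 CPM under saline. Cd2 weighs heavily in these sums. It averaged 264.9 CPM in saline males, where the sums were 266.8 to 275.6 CPM, so the other markers added little there. The median log2 fold change of the T cell markers was 7.34, a rise that the sums understate. All 12 tested of 13 B and plasma cell markers rose, with sums of 80.4 to 473 CPM under bleomycin and 1.11 to 2.06 CPM under saline, where Ighd, Cd79b, Fcmr, Pax5, Iglc2 and Mzb1 were at 0 in every male library and Iglc2 and Jchain in every female library. Markers near 0 under saline passed the filter on low counts through the bleomycin libraries, so that filter favours a rise in their counts. The part of these cells in the rise of Irf8, Irf4 and Maf was not tested.

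Bhlhe40 (ENSMUSG00000030103, chr6:108660629-108666925, plus strand) and Bhlhe41 (ENSMUSG00000030256, chr6:145858243-145865558, minus strand), the paired E-box repressors, both rose. Bhlhe41 had 175, 204, 203 and 206 CPM in bleomycin males and 162, 183, 222 and 229.7 CPM in bleomycin females, against 136, 145, 114 and 156 CPM in saline males and 114, 175, 148 and 129.8 CPM in saline females. Males did not overlap between treatments, whereas the bleomycin female library C49 lay below the saline female library C75. Bhlhe41 rose by 0.50 on the log2 scale (SE 0.094, edgeR adjusted p = 0.000138), with 0.52 (SE 0.13) in males and 0.49 (SE 0.13) in females. In females the call was lost with library totals alone (0.28, adjusted p = 0.0540).

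Bhlhe40 had 269.6, 310.2, 319 and 271 CPM in bleomycin males and 268, 266, 274 and 301 CPM in bleomycin females, against 199, 277, 212 and 244 CPM in saline males and 233, 259.9, 225 and 216 CPM in saline females. Females did not overlap between treatments, while the saline male library C71 lay above the bleomycin male libraries C33 and C67. The log2 fold change was 0.29 over both sexes (SE 0.070, edgeR adjusted p = 0.00163) and 0.33 in males (SE 0.0995, adjusted p = 0.00943). In females it was 0.25 (SE 0.0995, adjusted p = 0.0510) and did not pass, but it passed without C49 (0.26, adjusted p = 0.0457) or C75 (0.30, adjusted p = 0.0315), and in all libraries with DESeq2 (0.23, adjusted p = 0.0465) and limma voom (0.25, adjusted p = 0.0438). With library totals alone the value over both sexes was 0.075 (adjusted p = 0.297). That scaling moved the median of all genes to -0.20, and relative to this median Bhlhe40 stood at 0.28 under either scaling. The FPKM ratio of Bhlhe41 to Bhlhe40 was 0.422 to 0.565 under bleomycin and 0.344 to 0.480 under saline, which overlap.

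Bhlhe40 and Bhlhe41 are also output genes of the circadian clock, whose other genes were therefore counted. Of 16 clock genes 8 rose, 6 fell and 2 did not pass, at a summed level of 318 to 406 CPM under bleomycin and 387 to 533 CPM under saline. Tef rose by 1.54 (SE 0.14) and Nr1d2 by 0.38 (SE 0.095), while the period genes Per1 and Per2 fell by 0.81 (SE 0.20) and 0.73 (SE 0.090) and Rora fell by 0.62 (SE 0.062), all on the log2 scale. Per1 varied widely, with 52.7 ± 17.5 CPM in bleomycin males and 80.4 ± 13.6 CPM in bleomycin females, against 115 ± 46.0 CPM in saline males and 114 ± 43.2 CPM in saline females (SD, n = 4 each). The labels used here give no hour of lavage.

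Klf4 (ENSMUSG00000003032, chr4:55527143-55532466, minus strand) had 109, 80.9, 115 and 97.7 CPM in bleomycin males and 95.0, 87.1, 126 and 139 CPM in bleomycin females. Saline males had 159.8, 149, 144 and 191 CPM and saline females 168, 205, 159 and 197 CPM. All bleomycin libraries lay below all saline libraries, with C69 the highest under bleomycin. Klf4 fell by 0.69 on the log2 scale (SE 0.10, edgeR adjusted p = 1.09e-05), by 0.68 in males (SE 0.14) and by 0.71 in females (SE 0.14).

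Cebpb (ENSMUSG00000056501, chr2:167688915-167690418, plus strand), a C/EBP protein needed by alveolar macrophages and induced in inflammation, had 373, 564, 616 and 568 CPM in bleomycin males and 459.5, 488, 766 and 826 CPM in bleomycin females. Saline males had 732, 807, 783 and 641 CPM and saline females 966, 817, 814 and 868 CPM. Males did not overlap between treatments. In females C49, C50 and C68 lay below every saline female library and C69 lay among them. Cebpb fell by 0.46 over both sexes (SE 0.12, edgeR adjusted p = 0.00318), by 0.48 in males (SE 0.17, adjusted p = 0.0260) and by 0.45 in females (SE 0.17, adjusted p = 0.0455). The call in males was lost without C33 (-0.34, adjusted p = 0.0836), C71 (-0.44, 0.0637) or C72 (-0.45, 0.0595). In females it was lost without C49 (-0.32, 0.1202), C50 (-0.37, 0.114), C74 (-0.39, 0.116), C75 (-0.48, 0.0613), C76 (-0.48, 0.0601) or C77 (-0.45, 0.0782), and with only the 8 female libraries fitted (-0.48, 0.0503). Cebpb shares 908 bases with Tmem189 on the opposite strand, which had 1453 to 2893 counts per library, and whether the authors counted by strand is not given in the sources used here.

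Cebpa (ENSMUSG00000034957, chr7:35119293-35121928, plus strand), the C/EBP protein of the early myeloid lineage, had 534, 515, 558 and 504 CPM in bleomycin males and 418, 516, 588 and 592 CPM in bleomycin females. In saline there were 589.9, 629.6, 665 and 622 CPM in males and 725, 653, 591 and 718 CPM in females. Males again did not overlap between treatments, and in females C69 lay above the lowest saline library, C76. Cebpa fell by 0.30 (SE 0.071, edgeR adjusted p = 0.00140), by 0.25 in males (SE 0.10, adjusted p = 0.0437) and by 0.35 in females (SE 0.10, adjusted p = 0.00893). In males the call was lost without C33 (-0.25, adjusted p = 0.0593), C65 (-0.24, 0.0811), C67 (-0.22, 0.105), C71 (-0.25, 0.0746), C72 (-0.22, 0.112) or C73 (-0.25, 0.0726), and with no filter on low counts (-0.25, 0.0648). The FPKM ratio of Cebpa to Cebpb ran from 0.409 to 0.816 under bleomycin and from 0.415 to 0.553 under saline, so the ranges overlapped and the bleomycin one was wider.

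Spi1 (ENSMUSG00000002111, chr2:91082390-91115756, plus strand) had 457, 493, 499 and 454 CPM in bleomycin males and 375, 409, 533 and 597 CPM in bleomycin females, against 501, 512, 466 and 475 CPM in saline males and 547, 535, 508 and 542 CPM in saline females. The groups overlapped in both sexes, and the bleomycin females had the widest spread. The log2 fold change was -0.10 (SE 0.079, edgeR adjusted p = 0.293), -0.04 in males (SE 0.11) and -0.16 in females (SE 0.11). It passed without C69 (-0.17, adjusted p = 0.0354; in females -0.30, 0.0209) and with library totals alone (-0.32, adjusted p = 9.39e-05), where it stood at -0.12 relative to the median of all genes.

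**Figure D2:**
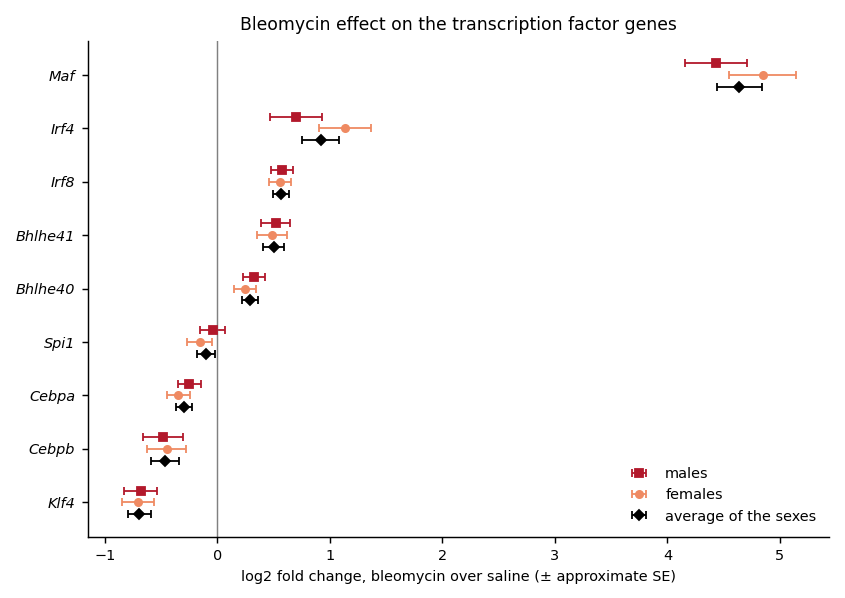
Log2 fold change of the 9 genes, bleomycin over saline, for males, for females and for the average of both; bars are ± the approximate SE. Maf lies at 4.64 in the average, and the other 8 genes lie between -0.69 and 0.92.

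**Figure D3:**
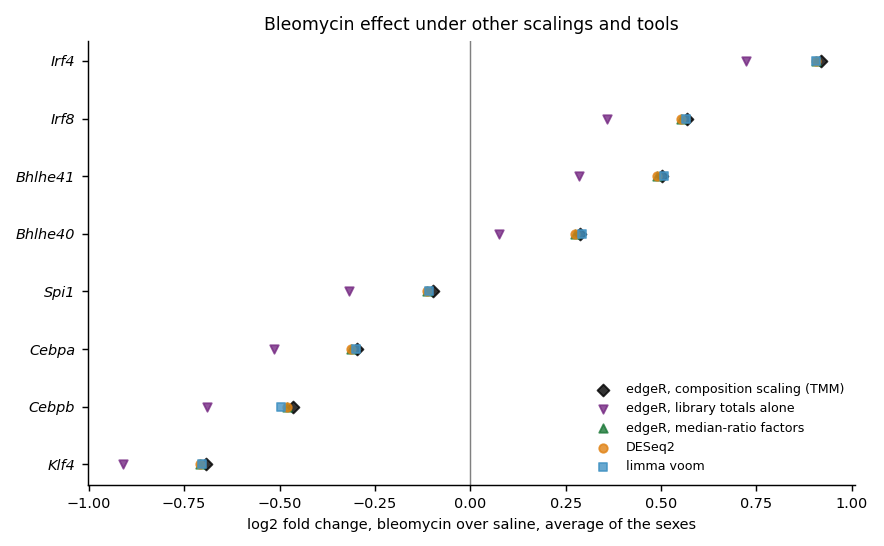
Log2 fold change, bleomycin over saline averaged over the sexes, of 8 genes (Maf not drawn) under the composition scaling used here, library totals alone, median-ratio factors, DESeq2 and limma voom. Library totals alone shift every gene down, Bhlhe40 to 0.075 and Spi1 to -0.32, and no gene changes sign.

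In each sex alone the 9 factors stood in the same order of log2 fold change. In males 8 of the 9 factors passed (56.5% of all genes did), 5 higher and 3 lower (31.5% and 24.9% of all genes), and 7 did not overlap between treatments, beside 29.8% of all genes upward and 24.6% downward. In females 7 passed (43.9% of all genes did), 4 higher and 3 lower (26.7% and 17.2% of all genes), and 5 did not overlap, beside 23.8% and 15.3% of all genes. The sex-specific values of bleomycin were tested against each other by the interaction of bleomycin with sex: 0 of the 9 factors passed (0.00655% of all genes did), 0 had an unadjusted p below 0.05, and DESeq2 and limma voom also called 0. The largest male minus female differences in effect were -0.43 for Irf4 (SE 0.32) and -0.41 for Maf (SE 0.42). These SEs leave room for differences of this size, so equal effects were not shown.

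Males and females were also compared within each treatment. Under bleomycin, 0 of the 9 factors passed (0.059% of all genes did), none had an unadjusted p below 0.05, and the largest log2 fold change, male over female, was 0.26 in size. Under saline, again 0 passed (0.269% of all genes did), none had an unadjusted p below 0.05, and the largest log2 fold change was 0.63 for Maf (SE 0.36). DESeq2 and limma voom called 0 in either treatment. Cebpb was the only factor whose saline groups did not overlap, lower in males at 741 ± 73.2 CPM than in females at 866 ± 70.99 CPM (SD, n = 4 each). Its log2 fold change was -0.23 (SE 0.17, edgeR adjusted p = 0.683), and 6.3% of all genes did not overlap in this direction. Fitted on the 8 saline libraries alone it was -0.24 (adjusted p = 0.0847). The authors' deposited table of this comparison lists Cebpb at -0.24 (adjusted p = 0.0310), Spi1 at -0.14 (0.0595) and Irf4 at 0.33 (0.201).

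The authors' deposited tables of bleomycin against saline list 8 of the 9 factors, all but Spi1, in both sexes together, in males and in females. These tables rest on the same libraries. Being listed is not a call, as Irf4 is listed under saline at the authors' adjusted p of 0.201. The share of all genes that is listed was not counted, so the 8 listed factors cannot be set beside it. In the authors' deposited table for both sexes Maf stands at 4.61, Irf4 at 0.90, Irf8 at 0.55, Klf4 at -0.71 and Bhlhe40 at 0.28 on the log2 scale.

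Levels of different genes were compared as FPKM, which the authors divided by gene length. Under bleomycin the order was Cebpb (382 ± 96.9), Cebpa (198 ± 19.8), Spi1 (174 ± 24.2), Bhlhe40 (59.7 ± 4.27), Klf4 (34.3 ± 6.17), Bhlhe41 (29.1 ± 3.24), Irf8 (26.9 ± 2.70), Irf4 (3.23 ± 0.941) and Maf (2.83 ± 0.707), as mean FPKM ± SD over 8 libraries. Cebpa and Spi1 overlapped in range, as did Klf4 with Bhlhe41, Bhlhe41 with Irf8, and Irf4 with Maf. Under saline the order was Cebpb (532 ± 62.7), Cebpa (245 ± 19.5), Spi1 (189 ± 11.1), Klf4 (56.1 ± 7.45), Bhlhe40 (49.3 ± 5.47), Bhlhe41 (20.7 ± 3.06), Irf8 (18.3 ± 1.51), Irf4 (1.74 ± 0.387) and Maf (0.115 ± 0.0484). Here only Klf4 and Bhlhe40, and Bhlhe41 and Irf8, overlapped with their neighbour. Klf4 and Bhlhe40 changed places between the treatments. By mean FPKM among 1469 genes with a transcription factor family, Cebpb ranked 1 under both treatments, Cebpa 3 under bleomycin and 2 under saline, and Spi1 4 under both. Klf4 ranked 32 under bleomycin and 12 under saline, and Maf 461 under bleomycin and 817 under saline.

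**Figure D4:**
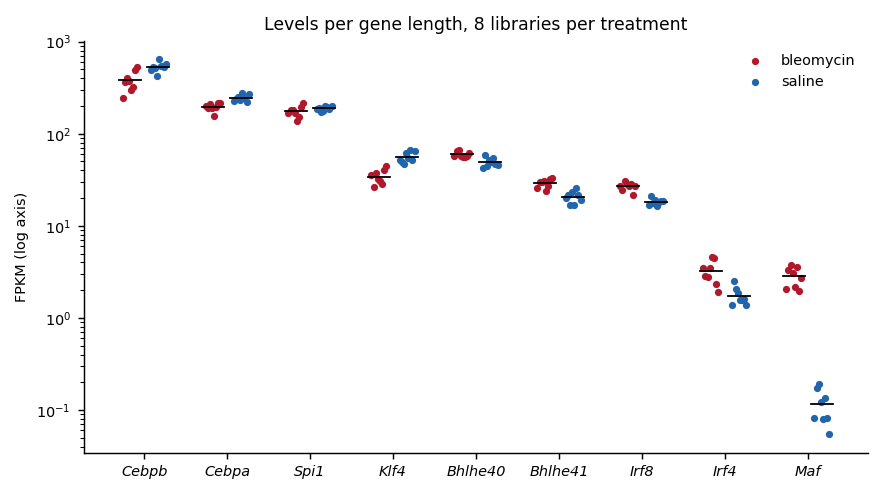
FPKM of the 9 genes per library on a log axis, 8 bleomycin and 8 saline libraries, with a line at the mean; genes run from high to low saline level. Maf and Irf4 lie far below the other genes, and the saline points of Maf lie below all bleomycin points.

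Relatives from the same protein families were counted to place the 9 genes. Of 27 C/EBP, Maf, Klf, IRF and Ets relatives 25 were tested, 12 rose, 7 fell and 6 did not pass, with a median log2 fold change of 0.12 beside 0.01 over all genes. Irf7, an interferon-induced factor, rose by 3.61 on the log2 scale (SE 0.12). Spib, the lymphoid relative of Spi1, had 17.8 ± 6.87 CPM in bleomycin males and 15.0 ± 7.39 CPM in bleomycin females, against 0.0681 ± 0.0730 CPM in saline males and 0.0402 ± 0.0506 CPM in saline females (SD, n = 4 each), and some saline libraries were at 0. Klf7 fell by 0.93 (SE 0.12), Maff, a small Maf protein, by 0.92 (SE 0.078), and Klf10 by 0.79 (SE 0.070). Cebpd (-0.11, SE 0.12), Klf9 (0.00, SE 0.11) and Irf2 (0.12, SE 0.060) did not pass.

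Of 41 other transcription factors of macrophages 17 rose, 20 fell and 4 did not pass, with a median log2 fold change of -0.15. Runx3 (4.58, SE 0.26), Egr1 (2.93, SE 0.21) and Mef2c (2.74, SE 0.14) rose. Runx3 averaged 27.4 ± 6.65 CPM in bleomycin males and 24.4 ± 8.89 CPM in bleomycin females, against 1.17 ± 0.688 CPM in saline males and 0.998 ± 0.375 CPM in saline females (SD, n = 4 each), and it is also a factor of cytotoxic T cells. Rara, the retinoic acid receptor, fell by 1.46 (SE 0.072), Myc by 0.94 (SE 0.14) and Runx2 by 0.90 (SE 0.070). Over all 889 tested genes with a transcription factor family, 234 rose and 334 fell, which is 63.9% called, with a median of -0.11.

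The receptors of macrophage growth factors and cytokines were listed because Csf1 and Csf2 signalling sets the level of several of these factors. Of 11 receptors 5 rose, 2 fell and 4 did not pass. Csf1r, the M-CSF receptor and a known PU.1 target, averaged 645 ± 41.2 CPM in bleomycin males and 665 ± 69.6 CPM in bleomycin females, against 332 ± 19.7 CPM in saline males and 299.6 ± 26.0 CPM in saline females (SD, n = 4 each), a rise of 1.05 on the log2 scale (SE 0.063). Ifngr2, a chain of the interferon gamma receptor, rose by 0.87 (SE 0.071) and Il4ra, the interleukin 4 receptor chain, by 0.76 (SE 0.064). Csf3r fell by 0.50 (SE 0.087) and Tgfbr1 by 0.39 (SE 0.056). The GM-CSF receptor chains Csf2ra (-0.08, SE 0.052) and Csf2rb (-0.15, SE 0.077) did not pass.

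The last lists bear on roles named above. Of 18 immediate early genes, which include factors induced together with Cebpb and Klf4 in stimulated macrophages, 9 rose, 6 fell and 3 did not pass, with Ier3 at 2.17 (SE 0.26), Gadd45b at 2.10 (SE 0.13), Dusp1 at -0.89 (SE 0.20) and Fosl2 at -0.65 (SE 0.077). Of 15 cell cycle genes, listed because Maf restrains self-renewal, 2 rose, 3 fell and 10 did not pass, with Ccnd1 at 3.68 (SE 0.17), Mki67 at -0.48 (SE 0.095) and Top2a at -0.22 (SE 0.076).

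Resident alveolar macrophage markers mostly fell. Of 19, 13 fell, 2 rose (Ctsk, 1.49, SE 0.095, and Fabp4, 0.57, SE 0.11) and 4 did not pass, with a median of -0.61. Krt79 fell by 4.41 (SE 0.25) and Fabp1 fell by 5.19 (SE 0.17). Of 16 monocyte and monocyte-derived macrophage markers 15 rose and Cd14 did not pass (0.22, SE 0.10). Of 8 tested of 13 neutrophil markers 6 rose, Csf3r fell and 1 did not pass. Ly6g, Camp, Ngp, Elane and Mpo were not tested, with a highest count of 1 to 4 in any library of either treatment. Neutrophil sums were 195 to 242 CPM under bleomycin and 84.2 to 127 CPM under saline, with Mpo at 0 in every library of 3 groups. Of 15 epithelial markers 13 rose, 1 fell and 1 did not pass, with a median of 3.16. Cldn4, a tight junction protein, rose by 5.56 (SE 0.25) and the keratin Krt8 by 4.62 (SE 0.14), while Epcam, at up to 119.7 CPM in the mean of a group, fell by 2.66 (SE 0.11). The epithelial sums, which include Epcam, were 211 to 313 CPM under bleomycin and 202 to 261 CPM under saline. Of 6 tested of 12 fibroblast and endothelial markers 5 rose and Vwf did not pass (0.17, SE 0.10), with a median of 5.05. Pecam1, an endothelial and leukocyte adhesion molecule, rose by 6.17 (SE 0.45). Col1a2, Col3a1, Pdgfra, Pdgfrb, Dcn and Lum were not tested, with a highest count of 2 to 22 in any library. The median therefore does not cover these fibroblast markers. Of those tested, Col1a1 was at 0 in every saline library and Kdr in every saline female library. The filter on low counts favours a rise in such markers. Vwf reached 189 CPM in the mean of a group, and the fibroblast and endothelial sums, which include it, were 162 to 256 CPM under bleomycin and 138 to 185 CPM under saline. The part of these cells in the values of the 9 factors was not tested.

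The 8 bleomycin libraries also differed among themselves, and the factors were set against the levels of the marker lists there. C49 and C50 had the lowest Spi1 and the highest Irf4, and C49 the lowest Cebpa, while their resident marker levels (mean log2(CPM + 1) over the list) were 7.90 and 8.06 and their T cell marker levels 5.24 and 5.08. C68 and C69 had the highest Spi1, Klf4, Cebpb and Bhlhe41, resident levels of 8.64 and 8.51, and T cell levels of 4.05 and 4.18. These 4 libraries are the females, and the males did not all follow them. C65 and C67 had resident levels of 7.92 and 7.99 and T cell levels of 5.38 and 5.32. Their Irf4 was at 14.2 and 16.97 CPM and their Spi1 at 493 and 454 CPM. For Klf4 and the resident level, Pearson's r was 0.880 (exact permutation p = 0.00474, adjusted p = 0.171 over 72 relations) and Spearman's rho was 0.833 (exact permutation p = 0.0154, adjusted p = 0.185), with r = 0.869 after removing the mean of each sex and r = 0.738 without the 2 libraries farthest from the median. Klf4 also ran against the T cell level (r = -0.835, exact permutation p = 0.0131, adjusted p = 0.235). With the B and plasma cell level r was -0.763 (adjusted p = 0.235) and with the dendritic cell level -0.707 (adjusted p = 0.276), by the same test. The remaining lists gave r from -0.549 to 0.136 with Klf4. Cebpa and the resident level gave r = 0.806 (exact permutation p = 0.00937, adjusted p = 0.225) and rho = 0.929 (exact permutation p = 0.00223, adjusted p = 0.161), with r = 0.867 within the sexes and r = 0.663 without 2 libraries. Irf4 and the resident level gave r = -0.717 (exact permutation p = 0.0486, adjusted p = 0.276) and rho = -0.690 (exact permutation p = 0.0694, adjusted p = 0.416), which became r = -0.253 without 2 libraries and so rested on those. None of the 72 relations passed adjustment, and 13 had an unadjusted Pearson p below 0.05. For Maf, C33, C49 and C68 formed a low cluster in Maf (16.7 to 17.9 CPM) and in the monocyte-derived marker level (6.75 to 6.76), apart from the other 5 libraries (23.2 to 31.4 CPM and 7.04 to 7.42), so no pooled correlation is given.

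**Figure D5:**
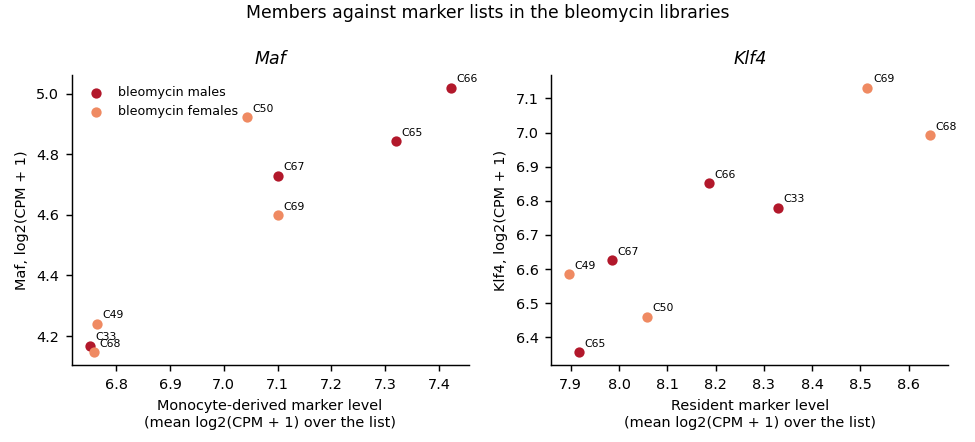
Log2(CPM + 1) of Maf against the monocyte-derived marker level (left) and of Klf4 against the resident marker level (right) in 4 bleomycin males and 4 bleomycin females, labelled by library code. C33, C49 and C68 lie apart at the low end for Maf, and the relation of Klf4 to the resident level (r = 0.880) did not pass adjustment (adjusted p = 0.171).

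The genes most like each factor were sought by the Pearson r of log2 CPM over 16 libraries after the mean of each group was removed, given as a description. They were Eefsec (0.888) and Ifitm2 (0.840) for Bhlhe40, Rtp4 (0.854) and Phlda3 (0.826) for Bhlhe41, and Stx11 (0.872) and Arhgef10l (0.865) for Maf. For the C/EBP genes they were Nutf2 (0.912) and Cpped1 (0.897) with Cebpa, and Phax (0.970) and Crnkl1 (0.943) with Cebpb. Spi1 ran with Asah1 and Hsd17b11 (both 0.969), Klf4 with Prag1 (0.947) and Pbx3 (0.923), Irf8 with Ccr2 (0.806) and Pdgfb (0.789), and Irf4 with Atad2b and Il18r1 (both 0.941). The libraries share depth and cell mixture. The search covered the protein-coding genes among the 15257 tested, without the predicted Gm and Rik models. With the group means kept, so that r includes the difference between treatments, the nearest genes were Eefsec for Bhlhe40, Bcl2l1 for Bhlhe41, Arhgef10l for Maf, Tmem238 for Cebpa, Bcl2a1a for Cebpb, Laptm4a for Spi1, Prag1 for Klf4, Pdgfb for Irf8 and Chd3 for Irf4.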

How the data were processed

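Gene counts and FPKM of 16 libraries were analysed. Per the submitters' processing notes, the tools were HISAT2 2.0.5, fastp 0.12.2, DESeq2 and featureCounts 1.5.0-p3. The builds listed there are mm10 and mm9, with no role given, and strand use is not given in the sources used here. The deposited counts are raw counts per gene. The FPKM deposited by the authors equal the counts divided by gene length and a constant per library. The log2 fold changes and p-values in the deposited comparison tables are the authors' own. Gene coordinates in the files are those of GENCODE M21 (GRCm38) for all 9 genes.

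Counts were fitted in edgeR 4.0.16 (R 4.3.3) as 1 model over 16 libraries with 1 coefficient per group, so that groups share 1 estimate of the spread. Settings were TMM scaling, filterByExpr with a minimum count of 10 (15257 of 54532 genes kept), the quasi-likelihood F test and Benjamini-Hochberg adjustment over all genes tested. The SE is the size of the log2 fold change divided by the square root of F. The scripts were checked on simulated counts. Alternatives were other scalings, other filters, DESeq2 1.42.0, limma voom 3.58.1, fits of the groups compared alone, and leaving out each library. Marker relations used exact permutation tests, two-sided, with 40320 pairings of 8 libraries. CPM and FPKM rest on total counts of 16385784 to 24567609 per library.

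The factors and gene lists were chosen with earlier results of these data known. The text names all 9 factors and the nearest genes by correlation. Of each list it names up to 3 largest rises and 3 largest falls called, with at least 10 CPM in 1 group. Csf2ra, Csf2rb, Cd14, Chil3, Vwf, Cebpd, Klf9 and Irf2 were named in addition, after their values had been seen. The neutrophil, fibroblast and endothelial markers that were not tested are named to show which members are missing. A further gene that this rule names is not reported here.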

Additional observations from a re-analysis of the deposited data

Results flagged for a closer look

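In bleomycin males, Bhlhe41 in library C33 lay at 175 CPM, below the other 3 libraries of the group, which lay at 203 to 206 CPM. The gap to the nearest library was 0.908 of the group's whole range, above Dixon's critical value for 4 libraries. Of 36 groups looked at (9 genes in 4 groups) this was the only one so far apart. By chance about 1 group in 20 has such a gap, so 1 in 36 is not more than chance gives. C33 was also the lowest bleomycin male library for Maf and Cebpb.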

How the results depend on the processing

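Over 936 values of the 9 factors under alternatives, 853 kept their direction and side of the threshold and 0 called values changed sign; 52 uncalled values changed sign. With library totals alone, the average effect of bleomycin was 0.075 for Bhlhe40 (no longer called) and -0.32 for Spi1 (now called), with a shift of the median of all genes to -0.20. By this scaling 34.7% of called genes were higher, against 54.6% with TMM. Leaving out each library put Spi1 between -0.17 and -0.047. The other factors kept their call in the average under the alternatives run. Of all genes, the interaction called 1, against 0 with library totals alone, 15 with no filter on low counts, 0 with the strict filter, 23 with DESeq2, 0 with limma voom and 0 to 1 without each library. Males against females under bleomycin called 9 genes, and 14 with no filter. Under saline they called 41, against 119 with no filter, 191 with DESeq2, 765 with only the saline libraries fitted, and 20 to 35 without each library; the cause was not tested. Fitting only the groups compared leaves the average and the interaction as they are. No paired analysis was possible because no replicate code occurs in more than 1 group. Depth limits Maf under saline, at 8 to 32 counts.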
